A study of Mus musculus with 6 samples.

Results

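The immunity-related GTPases (IRGs) were followed as the 8 genes Irgm1, Irgm2, Igtp, Iigp1, Tgtp1, Tgtp2, Ifi47 and Gm12250, chosen by symbol from the 24421 genes of an RNA-seq count matrix. The libraries came from splenic CD4+YFP+ Treg cells of 8- to 11-week-old female C57BL/6 mice, sorted without treatment, with 1 library per mouse. The WT group was 3 Foxp3Cre mice, and the KO group 3 mice of the genotype Foxp3Cre miR-142fl/fl. Both groups carried the Foxp3Cre allele, which makes Cre recombinase as a fusion with yellow fluorescent protein in cells that express Foxp3, so that by design miR-142 was removed in KO mice in the Treg lineage and not in other cells. Total counts were between 13883069 and 24042994 per library, and all 8 genes passed the filter of over 1 CPM (raw counts divided by the library total and put on a common scale) in 3 or more libraries, with raw counts from 287 to 11036 per gene and library. The question addressed was whether and how far each IRG mRNA differed between miR-142-deficient and miR-142-sufficient Treg cells. The study reports autoimmune disease in mice of the KO genotype, with more splenic CD4+ and CD8+ T cells making interferon gamma. It names this inflammation as a possible source of expression changes in their Treg cells. Effects of the inflamed surroundings and of miR-142 loss within the cells cannot be told apart in these libraries.

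IRGs are GTPases that cells make after exposure to interferon gamma (IFNγ), and in mice they are known for defending cells against parasites and bacteria that live inside membrane vacuoles. IFNγ binds the receptor chains Ifngr1 and Ifngr2, and signaling through the kinases Jak1 and Jak2 leads to transcription from gamma-activated sites (GAS) in DNA. Factors of the interferon response, such as Irf1, bind a second element, the interferon-stimulated response element (ISRE). Within the family, Irgm1, Irgm2 and Igtp (Irgm3) are the regulatory GMS proteins, named for a methionine in the nucleotide-binding motif, which sit on the cell's own membranes and keep the others inactive there. Iigp1 (Irga6), Tgtp1 and Tgtp2 (Irgb6), Ifi47 (Irgd) and Gm12250 (Irgb10) belong to the GKS proteins, with a lysine at that place, which load onto the vacuole and break it open. In T lymphocytes Irgm1 is also known for keeping cells alive during the response to IFNγ.

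To show what the members have in common in sequence, the RefSeq promoters (GRCm38.p6, 250 bases before to 50 after the gene start) of the 7 members in the promoter table were searched on both strands for a GAS motif, TTCNNNGAA, and an ISRE core, GAAA and GAAA with any 2 bases between them. A GAS motif was present in 8.3% and an ISRE core in 3.44% of all 32851 promoters, and both together in 0.454%. Irgm2, Igtp, Tgtp1, Tgtp2 and Gm12250 held both, Irgm1 held 2 overlapping ISRE cores and no GAS, and Ifi47 held neither in this window. In Irgm2, Igtp, Tgtp1 and Tgtp2 the GAS motif was followed after 2 bases by the ISRE core, within a nearly identical stretch upstream of the start. A GAS followed by an ISRE core on the same strand within 20 bases was found in 45 of the 32851 promoters (0.137%). The stretches are given 5′ to 3′ on the gene's own strand, with the motif letters in capitals, and Gm12250 has its 2 ISRE cores on the opposite strand, on either side of the GAS motif.
Irgm2, chr11:58214894-58214934, + strand: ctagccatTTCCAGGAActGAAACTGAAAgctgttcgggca
Igtp, chr11:58199503-58199543, + strand: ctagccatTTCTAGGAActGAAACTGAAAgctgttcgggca
Tgtp1, chr11:48992302-48992342, - strand: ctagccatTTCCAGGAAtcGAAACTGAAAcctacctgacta
Tgtp2, chr11:49064261-49064301, - strand: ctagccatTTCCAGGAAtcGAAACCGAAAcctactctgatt
Irgm1, chr11:48871423-48871458, - strand: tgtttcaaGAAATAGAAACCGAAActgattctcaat
Gm12250, chr11:58183744-58183818, + strand: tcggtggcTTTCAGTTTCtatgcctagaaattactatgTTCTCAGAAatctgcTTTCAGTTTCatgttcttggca
The GAS motif began 75 bases before the start in Irgm2, 45 in Igtp, 88 in Tgtp1 and 81 in Tgtp2. No promoter of Iigp1, Gm4951, Gm4841, F830016B08Rik or Irgc1 was examined. Among the IRG-like genes outside the members whose promoters were examined, the same arrangement was in that of Gm12185, a gene of the Irgm1 neighborhood. Its GAS motif began 86 bases before its start. These matches describe the letters in the window, and no binding was measured here.

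In KO Treg cells 4 of the 8 members, Iigp1, Gm12250, Tgtp1 and Igtp, were higher than in WT Treg cells at an FDR under 0.05 in edgeR's quasi-likelihood F (QLF) test with Benjamini-Hochberg adjustment over 11658 genes. They rose by 1.01 to 1.75 on the log2 scale (KO over WT), that is from 2.01-fold for Igtp to 3.37-fold for Iigp1. Over all genes tested, 1350 genes (11.6%) were called higher and 847 genes (7.27%) lower. With scaling by library size alone that split was 1064 higher and 1201 lower, and the same number of members, 4, was called. The other 4 members, Irgm1, Irgm2, Tgtp2 and Ifi47, had log2 fold changes between 0.30 and 0.59 that did not pass the threshold. The QLF test called 0 members lower, 0 had an unadjusted p under 0.05 in that direction, and DESeq2 also called 0 lower. The median log2 fold change of the 8 members was 0.80, against 0.016 over all genes tested.

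**Figure D1:**
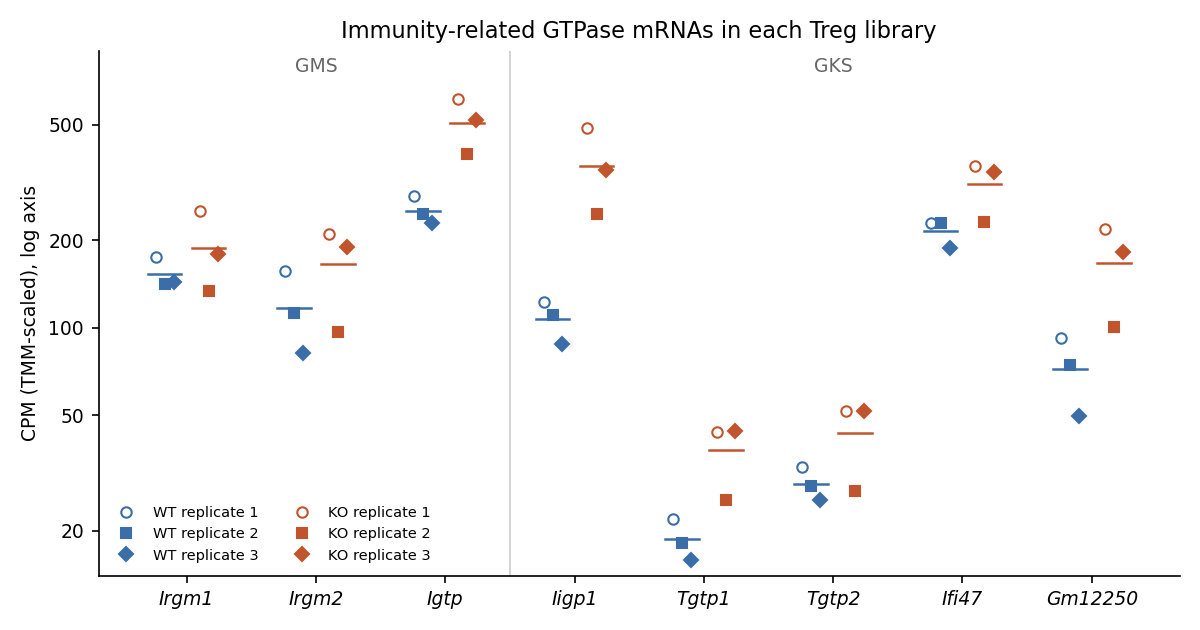
Level of each IRG mRNA (CPM scaled with TMM factors, log axis) in the 3 WT (blue) and 3 KO (red) Treg libraries, with symbols for the replicate and a line at the group mean. The KO libraries lie above all WT libraries for Igtp, Iigp1, Tgtp1, Ifi47 and Gm12250, and KO replicate 2 is the lowest KO library for each of the 8 genes.

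For 5 of the 8 members (Igtp, Iigp1, Tgtp1, Ifi47 and Gm12250) the lowest KO library exceeded the highest WT library, which was so for 22.2% of all genes tested. For these 5 the exact two-sided permutation test over libraries gave p = 0.1, the smallest it can give with 3 mice against 3, so the calls come from the QLF model. WT replicate 1 was the highest WT library for all 8 members and WT replicate 3 the lowest for 7. KO replicate 2 was the lowest KO library for all 8, and KO replicate 1 was the highest for 6 and KO replicate 3 for 2. The summed level of the 8 mRNAs in WT replicates 1, 2 and 3 was 1115, 961 and 822 CPM, against 2238, 1257 and 1858 CPM in the 3 KO libraries in the same order, without overlap of the groups. In such bulk samples, more cells that make an mRNA and more of it per cell cannot be told apart.

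KO replicate 1 also held transcripts of other cell types. The summed level of 12 macrophage marker genes was 3125 CPM there, between 15.2 and 19.4 CPM in the WT libraries and 90.6 and 24.7 CPM in KO replicates 2 and 3, and all 12 were highest in KO replicate 1. Of the 11 neutrophil markers in the matrix 10 were highest in that library, and their sum was 966 CPM there, between 4.37 and 5.91 CPM in WT, and 16.7 and 48.9 CPM in KO replicates 2 and 3. In the WT libraries the neutrophil genes S100a8, Lcn2, Retnlg and Mmp8 were at 0 counts. For 8 B cell markers the sums were 2374 CPM in KO replicate 1, between 76.9 and 91.5 CPM in WT, and 203 and 286 CPM in KO replicates 2 and 3, and all 8 were highest in KO replicate 1. Most of the KO sums came from 1 of the 8, Cd74, at 2097, 194 and 273 CPM in KO replicates 1, 2 and 3. In WT it was between 44.7 and 51.5 CPM. In KO replicates 2 and 3, 3 of the 8 had at most 3 counts, so the higher sums there do not speak for the other markers. The sums of 7 CD8 and NK cell markers were 105 CPM in KO replicate 1, between 26.6 and 29.8 CPM in WT, and 60.6 and 51.3 CPM in KO replicates 2 and 3. Of these 7 markers, 5 were highest in KO replicate 1. Erythroid markers summed to 12 CPM in KO replicate 1 and to 1.82 CPM or less elsewhere, but only 2 of the 6 were highest in KO replicate 1. The Treg identity of the cells was seen in all libraries, where Foxp3 lay between 536 and 749 CPM, and Mir142b, the annotation antisense to the targeted gene, fell from 6.33 ± 2.5 to 0.370 ± 0.0244 CPM (SD, n = 3). The part of other cell types in the IRG levels was not tested, and the results are also given without KO replicate 1. In that fit 3 members, Igtp, Iigp1 and Tgtp1, were called higher, against 9.69% of the genes tested, and the median of the 8 was 0.64.

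Of the 3 regulatory members, Igtp passed the threshold. Its mRNA was at 284, 246 and 230 CPM in WT replicates 1, 2 and 3 and, by the same numbering, at 613, 396 and 519 CPM in KO. The lowest KO library, replicate 2, lay well above the highest WT library, replicate 1. Mean Igtp rose from 253 ± 27.7 to 509 ± 109 CPM (SD, 3 mice each), or by 1.01 on the log2 scale (SE 0.17, FDR = 0.00877). Without KO replicate 1 it was 0.84 (FDR = 0.00725). With single libraries left out, Igtp was called in 5 of 6 fits, the exception being the one without WT replicate 2.

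Irgm1, the regulator found on Golgi and lysosomal membranes, had 175, 141 and 144 CPM in WT and 253, 133 and 179 CPM in KO, in replicate order. The lowest Irgm1 value of all 6 libraries was in KO replicate 2, so that WT and KO overlapped (p = 0.6, exact two-sided permutation test). Irgm1 differed by 0.30 on the log2 scale (95% CI -0.22 to 0.82, FDR = 0.38). Without KO replicate 1 the Irgm1 difference was 0.013 (FDR = 0.963). Irgm2 had 156, 113 and 81.8 CPM in WT and 211, 96.5 and 190 CPM in KO. KO replicate 2 lay below 2 of the 3 WT libraries for this gene (permutation p = 0.3, exact and two-sided). The log2 fold change of Irgm2 was 0.50 (95% CI -0.26 to 1.27, FDR = 0.315), and 0.28 without KO replicate 1. Both intervals include no change. That of Irgm1 ends below the fold changes of the 4 called members, while that of Irgm2 includes those of Igtp, Tgtp1 and Gm12250.

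Of the GKS members, Iigp1 had the highest fold change of the 8. Iigp1 stood at 122, 111 and 87.8 CPM in WT replicates 1, 2 and 3 and, by the same numbering, at 487, 247 and 349 CPM in KO. The groups were far apart, with 247 CPM the lowest KO value and 122 CPM the highest WT value. The mean rose from 107 ± 17.6 to 361 ± 120 CPM (SD, 3 mice each), by 1.75 on the log2 scale (SE 0.25, 95% CI 1.17 to 2.34, FDR = 0.00497). Without KO replicate 1, where the macrophage markers were high, it was 1.46 (2.75-fold, FDR = 0.00171). Iigp1 was called higher whichever single library was left out, and its log2 fold change in them was between 1.46 and 1.97.

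Gm12250, which encodes Irgb10, a GTPase known to act on bacterial membranes together with guanylate-binding proteins, had 92.6, 74.2 and 49.7 CPM in WT and 218, 101 and 182 CPM in KO mice. Its KO replicate 2 was close to WT replicate 1, and the groups did not overlap. The log2 fold change was 1.21 (SE 0.32, FDR = 0.0379). This call was not stable. With single libraries left out, it held in 1 of 6 fits, the one without KO replicate 2, and without KO replicate 1 the log2 fold change was 0.96 (FDR = 0.0559). With no filter on low counts the FDR was 0.0517.

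Tgtp1 and Tgtp2 encode nearly the same protein, T-cell-specific GTPase, and were first described in T cells. Tgtp1 had 22.0, 18.2 and 15.9 CPM in WT and 43.8, 25.5 and 44.1 CPM in KO, with no overlap. The log2 fold change of Tgtp1 was 1.02 (SE 0.23, FDR = 0.0249), and 0.88 without KO replicate 1 (FDR = 0.0376). With single libraries left out, it was called in 2 of 6 fits, those without KO replicate 1 and without KO replicate 2. Tgtp2 had 33.3, 28.4 and 25.4 CPM in WT and 51.5, 27.5 and 51.7 CPM in KO, where KO replicate 2 lay among the WT libraries. Its log2 fold change was 0.59 (SE 0.25, FDR = 0.136).

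These 2 genes cannot be read as independent. Their coding sequences (1248 bases each) were 99.7% identical, and of the 51-base windows of the transcripts, 51 bases being the read length, 79.2% of those of Tgtp1 also occurred in Tgtp2 and 85.7% of those of Tgtp2 in Tgtp1. How reads that match both genes were counted is not given in the sources used here. In GENCODE vM21 Tgtp1 also shares 223 exon bases with Gm12185 on the same strand. The ratio of Tgtp1 to Tgtp2 within a library was 0.66, 0.64 and 0.62 in WT and 0.85, 0.93 and 0.85 in KO (exact two-sided permutation test, p = 0.1). With the counts of both genes summed, the log2 fold change was 0.77 and the FDR 0.0592, above the threshold, so the call of Tgtp1 alone did not extend to the pair.

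Ifi47, a GKS member that is found at the endoplasmic reticulum, had 230, 230 and 188 CPM in WT replicates 1, 2 and 3. In KO replicates 1, 2 and 3 it had 362, 231 and 343 CPM. KO replicate 2 exceeded the highest WT library by less than 1 CPM. The log2 fold change was 0.53 (SE 0.18, FDR = 0.0792) and 0.40 without KO replicate 1. DESeq2 (adjusted p = 0.0254) and edgeR's likelihood ratio (FDR = 0.0465) and exact tests (FDR = 0.0483) called Ifi47, and so did the QLF test without KO replicate 2 (FDR = 0.0109). In GENCODE vM21, 106 exon bases of Ifi47 overlap Gm12188 on the opposite strand and 111 overlap Olfr56 on the same strand. Counting ignored strand, so reads from there cannot be assigned to 1 gene if the counting annotation, which is not given, held these genes.

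**Figure D2:**
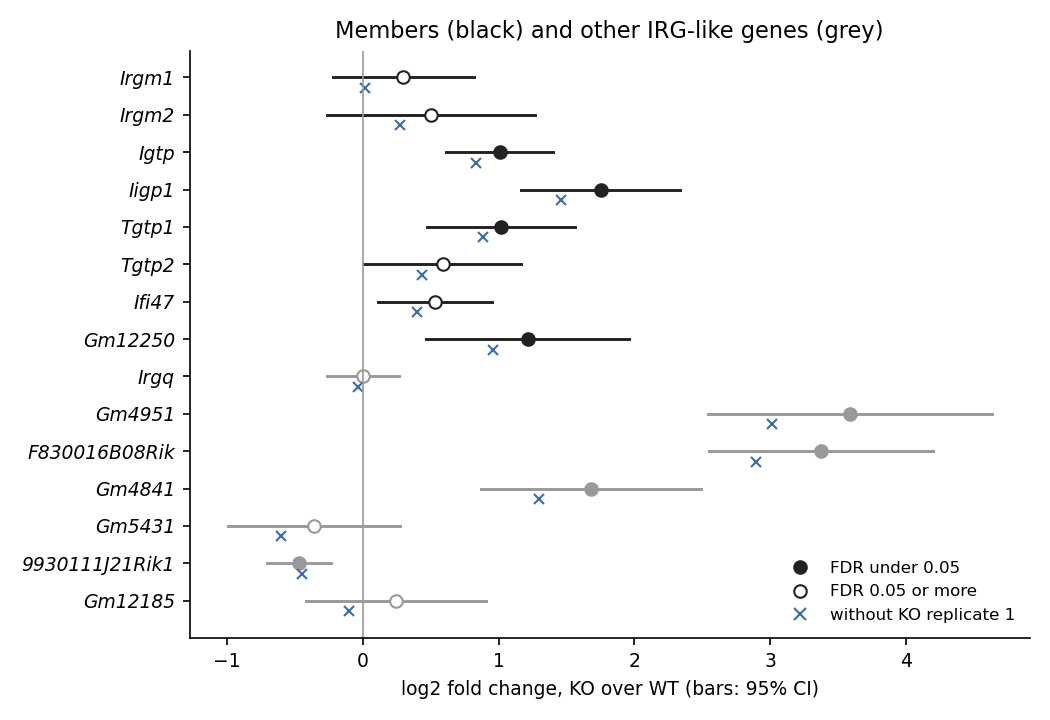
Log2 fold change (KO over WT) with its 95% CI for the 8 members (black) and the 7 other IRG-like genes tested (grey), filled where the FDR was under 0.05; blue crosses give the fold change without KO replicate 1. Iigp1, at 1.75, is the highest member, while Gm4951 and F830016B08Rik lie above 3.

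Members were also set against each other within a library, where scaling between libraries plays no part. The ratio of Iigp1 to Irgm1 was 0.70, 0.79 and 0.61 in WT and 1.93, 1.85 and 1.95 in KO, in replicate order. It was thus nearly the same in all KO libraries, KO replicate 1 included, and the groups did not overlap (difference of 1.46 in mean log2 ratio, exact two-sided permutation test, p = 0.1). Iigp1 and Irgm1 are the members with the highest and the lowest fold change in these libraries. The separation of their ratio restates those fold changes and is no further evidence. The ratio of Igtp to Irgm2 was 1.81, 2.18 and 2.81 in WT and 2.90, 4.10 and 2.74 in KO, with overlap (exact permutation p = 0.2). Adjacent genes with near-identical promoter stretches, Igtp and Irgm2, thus had log2 fold changes of 1.01 and 0.50 whose within-library ratio did not separate the groups.

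Levels were compared between genes per kb of merged exons (CPM per kb, GENCODE vM21). In WT cells Igtp was highest at 125 ± 13.7 CPM per kb (SD, n = 3), followed by Ifi47 at 87.2 ± 9.84, Gm12250 at 56.6 ± 16.9, Irgm2 at 31.7 ± 10.2, Irgm1 at 26.4 ± 3.21, Iigp1 at 18.4 ± 3.03, Tgtp2 at 9.88 ± 1.34 and Tgtp1 at 5.83 ± 0.962 CPM per kb. Of these neighbors, Gm12250 and Irgm2, and Irgm2 and Irgm1, overlapped between libraries. In KO cells the order began with Igtp at 252 ± 53.8, Gm12250 at 131 ± 47.2 and Ifi47 at 126 ± 28.7 CPM per kb, and Iigp1, at 62.0 ± 20.7 CPM per kb, had moved ahead of Irgm2 and Irgm1. In KO, Gm12250 and Ifi47, Iigp1 and Irgm2, Irgm2 and Irgm1, and Tgtp2 and Tgtp1 overlapped. The value of Gm12250 rests on a single-exon model of 1274 bases that GENCODE labels a processed pseudogene, whereas RefSeq has a longer, protein-coding gene there. The models also differ for Irgm1, whose left end is at 48861968 in GENCODE and 48865245 in RefSeq. For Irgm2 the left ends are 58199618 and 58214977. As the annotation used for counting is not given, levels per kb and the order of the genes may depend on the model. Of the read-length windows, 81.1% of those of Tgtp1 and 86.4% of those of Tgtp2 occur in another gene. For the other members the share was at most 11.6%, that of Igtp. The low places of Tgtp1 and Tgtp2 may thus depend on how shared reads were counted, which was not tested.

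Profiles over the 6 libraries were compared by the root mean square difference of log2 of CPM plus 0.5, centered on each gene's mean. By this measure the closest members were Tgtp2 and Ifi47 (0.12), and Igtp and Tgtp1 (0.12). Irgm1 and Iigp1 were farthest apart (0.73). Among the 11650 other genes tested, Tpi1, a glycolytic enzyme, had the profile closest to the members' mean (0.11), followed by Nqo1, Rabl2, Osm and Enpp5 (0.11 to 0.12), against a median distance of 0.55. Nqo1 and Rabl2 lay between 0.55 and 2.05 CPM, where the added 0.5 makes differences between libraries smaller. Tpi1 had 45.5, 37.3 and 38 CPM in WT and 104, 52.4 and 83.6 CPM in KO, with the same low KO replicate 2 as the IRGs. This is a description over 6 libraries of 2 groups.

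To look at the family beyond the 8 members, 9 further IRG-like genes in the matrix were read, of which 7 were tested. Of these, 3 were called higher, 1 lower and 3 not called, with a median of 0.24 (-0.033 without KO replicate 1). The shares over all genes tested were 11.6% higher and 7.27% lower. Gm4951, an IRG gene near Iigp1 with 86.1% identity to it in the coding sequence, was at 4.43, 2.87 and 2.77 CPM in WT and at 65.9, 21.7 and 32.5 CPM in KO, without overlap. Its log2 fold change was 3.59 (SE 0.45, FDR = 0.00324), and 3.01 without KO replicate 1. F830016B08Rik had 4.25, 3.16 and 4.15 CPM in WT and 61.5, 26.3 and 31.3 CPM in KO, and rose by 3.37 on the log2 scale (FDR = 0.00182). Gm4841 rose by 1.68 on the log2 scale (FDR = 0.0175), and by 1.30 without KO replicate 1. Its call held in 4 of 6 fits with a library left out. The ratio of Gm4951 to Iigp1 was between 0.026 and 0.036 in WT and between 0.088 and 0.135 in KO (exact two-sided permutation test, p = 0.1).

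The single called gene that was lower, 9930111J21Rik1, had 36.8, 40.6 and 41.6 CPM in WT and 27.1, 28.8 and 30.0 CPM in KO, without overlap (log2 fold change -0.47, FDR = 0.0195). Its call held in 4 of 6 fits with a library left out, and was lost with a replicate block (FDR = 0.0513). Its coding sequence of 2535 bases is longer than those of the members (1224 to 1272 bases, none annotated for Gm12250), and 82.9% of its 51-base windows occur in another gene, so its counts are uncertain. Gm5431 (-0.36, FDR = 0.384), Gm12185 (0.24, FDR = 0.582) and Irgq (0.00021, FDR = 0.999) were not called. The direction of Gm12185 turned without KO replicate 1 (-0.10), and that of Irgq turned under several settings. Irgc1, the testis-expressed family member, and 9930111J21Rik2 were at 0.94 CPM or less in every library and were not tested.

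The members lie in 3 clusters (GRCm38). Irgm1 (48861968 to 48871683), Tgtp1 (48985327 to 48994172), Tgtp2 (49057194 to 49064206) and Ifi47 (49076587 to 49096974) lie within 235 kb of chromosome 11, together with 4 other IRG-like genes. Gm12250 (58187739 to 58189012), Igtp (58199556 to 58207591) and Irgm2 (58199618 to 58222782) lie within 35 kb of the same chromosome, 9091 kb farther along, and Igtp and Irgm2 share 162 exon bases. Iigp1 (chromosome 18, 60376027 to 60392634) lies with Gm4951, Gm4841 and F830016B08Rik within 181 kb. In that cluster all 4 genes were called higher. In the Igtp cluster 2 of 3 were called higher. In the Irgm1 cluster, where 7 of the 8 genes were tested, 1 was called higher and 1 lower. Over all genes tested 11.6% were called higher and 7.27% lower, and the difference between clusters was not tested.

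**Figure D3:**
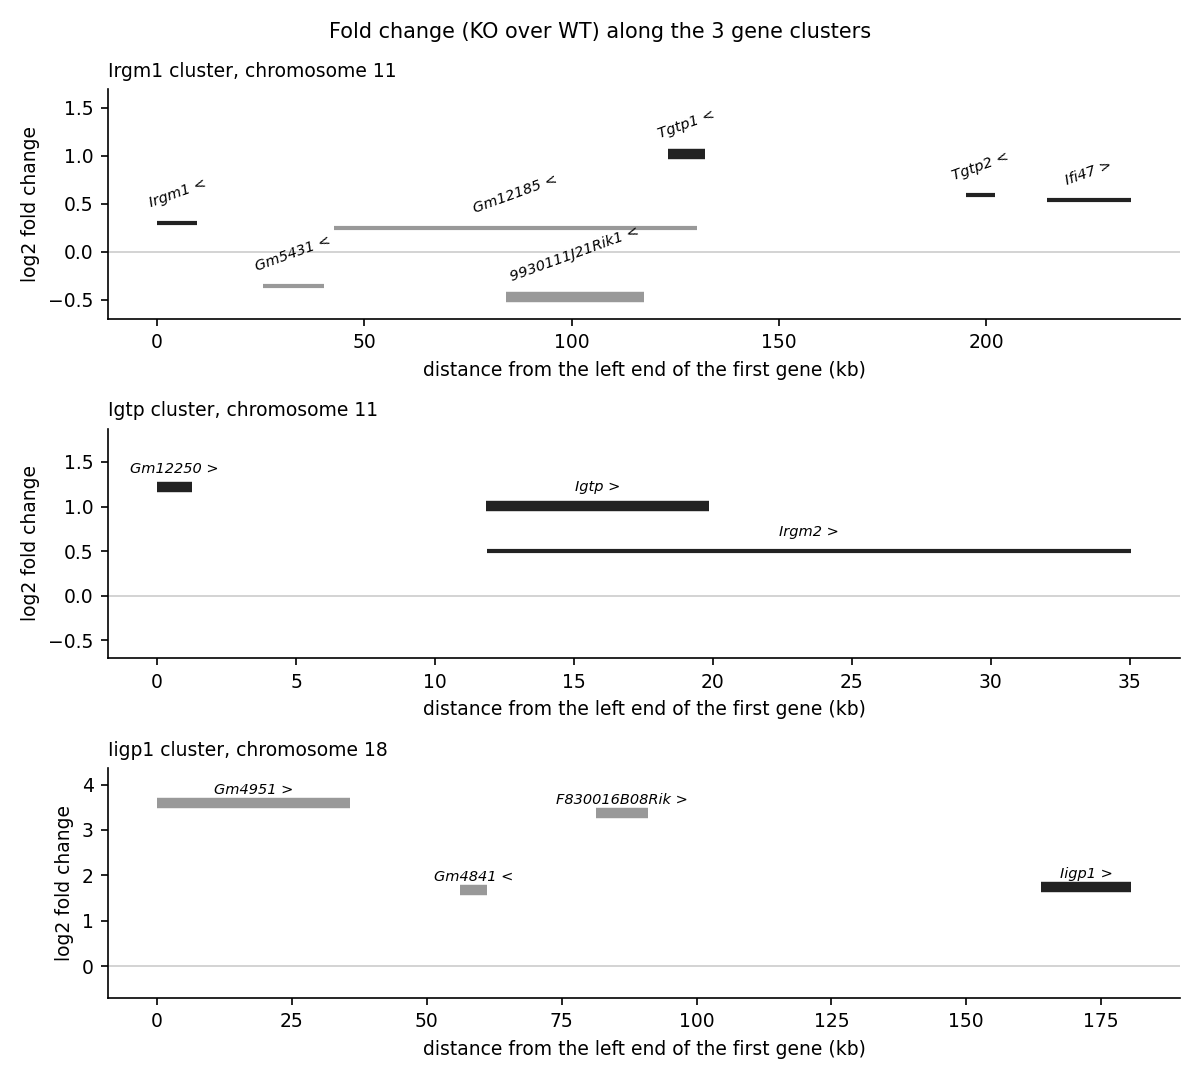
Log2 fold change (KO over WT) of the genes in the 3 clusters against the distance in kb from the left end of the first gene, with members in black, other IRG-like genes in grey, thick bars for genes with an FDR under 0.05, and arrowheads for the strand; 9930111J21Rik2, which was not tested, is not drawn. All 4 genes of the Iigp1 cluster lie at 1.68 or above, while the Irgm1 cluster reaches from -0.47 to 1.02.

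The IFNγ pathway was read from lists of its ligand and receptors, kinases and factors, inhibitors and other target genes. The other targets are outputs of the pathway, as the IRGs are, and do not lead to them. Of 32 genes tested, 18 were called higher and 14 were not called, with a median log2 fold change of 0.55. Of these 18 calls, 12 were among the 18 other target genes tested, so the pooled count speaks less for the signaling genes. Over all genes tested 11.6% were called higher, and the median was 0.016. Without KO replicate 1 the count was 16, against 9.69% of all genes tested in that fit. Of the genes of these lists, 8 were picked by the study from these samples, so their direction is not independent evidence. None of the 8 IRGs was among those it picked for this pathway. The IRGs are not independent of these samples either, as members and lists were chosen with earlier results of these data known. Ifng, which encodes the ligand, had 5.85, 13 and 24.6 CPM in WT and 15.0, 5.68 and 4.38 CPM in KO Treg cells, with overlap (log2 fold change -0.78, 95% CI -2.21 to 0.64, FDR = 0.402). The receptor chains Ifngr1 and Ifngr2 rose by 0.92 (FDR = 0.0152) and 0.54 (FDR = 0.0361) on the log2 scale. The call of Ifngr1 held in 3 of 6 fits with a library left out, with log2 fold changes between 0.67 and 1.05. The lowest was without KO replicate 1 (FDR = 0.00519). With single libraries left out, Ifngr2 was called in 1 of 6 fits, with log2 fold changes between 0.44 and 0.71 (0.49 without KO replicate 1, FDR = 0.0568).

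Downstream of the receptor, Irf1 was at 402, 365 and 451 CPM in WT and at 694, 509 and 526 CPM in KO (log2 fold change 0.51, FDR = 0.051), without overlap and without a call. For Irf8, a factor of myeloid and B cells, the KO values were 203, 47.4 and 56.3 CPM and the WT values between 31.5 and 39.2 CPM (log2 fold change 1.52, FDR = 0.0868), and without KO replicate 1 Irf8 was called at 0.52 (FDR = 0.0375). Jak1 (-0.11, FDR = 0.627) and Jak2 (0.17, FDR = 0.228) were not called.

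Among inhibitors of the pathway, Socs1 (0.55, FDR = 0.0486), Socs3 (1.07, FDR = 0.00088) and the phosphatase gene Ptpn1 (0.69, FDR = 0.00304) were called higher. The call of Socs1 held in 1 of 6 fits with a library left out, with log2 fold changes between 0.42 and 0.69, and was also lost with RLE size factors (FDR = 0.0511), library size alone (FDR = 0.0878), no filter on low counts (FDR = 0.0675) and edgeR's default filter (FDR = 0.0504). Ptpn2 (-0.015), Ptpn6 (0.19) and Pias1 (-0.17) were not called. Of the 18 other IFNγ target genes tested, 12 were called higher, against 11.6% of all genes tested. The 3 with the smallest p-values, which are not those with the highest fold changes, were Wars (1.25, FDR = 0.00194), the immunoproteasome gene Psmb8 (1.0, FDR = 0.00369) and the peptide transporter gene Tap2 (0.71, FDR = 0.00457).

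Guanylate-binding proteins (GBPs) are the other large family of IFNγ-induced GTPases and act with the IRGs on vacuoles. Of 11 tested, 8 were called higher and 3 were not called, with a median of 1.02, while 11.6% of all genes tested were called higher. Without KO replicate 1, 7 were called higher and the median was 0.65, against 0.64 for the IRGs in the same fit. In the 3 with the smallest p-values, the log2 fold changes were 1.87 for Gbp3 (FDR = 0.000996), 1.04 for Gbp4 (FDR = 0.00135) and 2.02 for Gbp2 (FDR = 0.0025). Among the 11, 6 were picked by the study from these samples.

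Genes known mainly as type I interferon responders were read for comparison. Of 22 tested, 1 was called higher and 1 lower, with a median of 0.00076, or -0.33 without KO replicate 1, when 1 was called higher and 6 lower. Over all genes tested 11.6% were called higher and 7.27% lower. Without KO replicate 1, 1107 of 11429 genes were called higher and 868 lower. Zbp1 rose by 0.46 on the log2 scale (FDR = 0.0229), Usp18 fell by 0.56 (FDR = 0.0445), and Mx2 had -0.67 (FDR = 0.0699). The calls of Zbp1 and Usp18 each held in 2 of 6 fits with a library left out. The conjugation machinery of autophagy is known to place IRG and GBP proteins on vacuoles. Of its 13 genes the QLF test and DESeq2 called 0. In the QLF test 2 had an unadjusted p under 0.05, as had 4060 of all 11658 genes tested. The 3 with the smallest p-values were Atg7 (0.38, FDR = 0.0931), Map1lc3a (0.78, FDR = 0.095) and Gabarapl1 (0.33, FDR = 0.204).

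**Figure D4:**
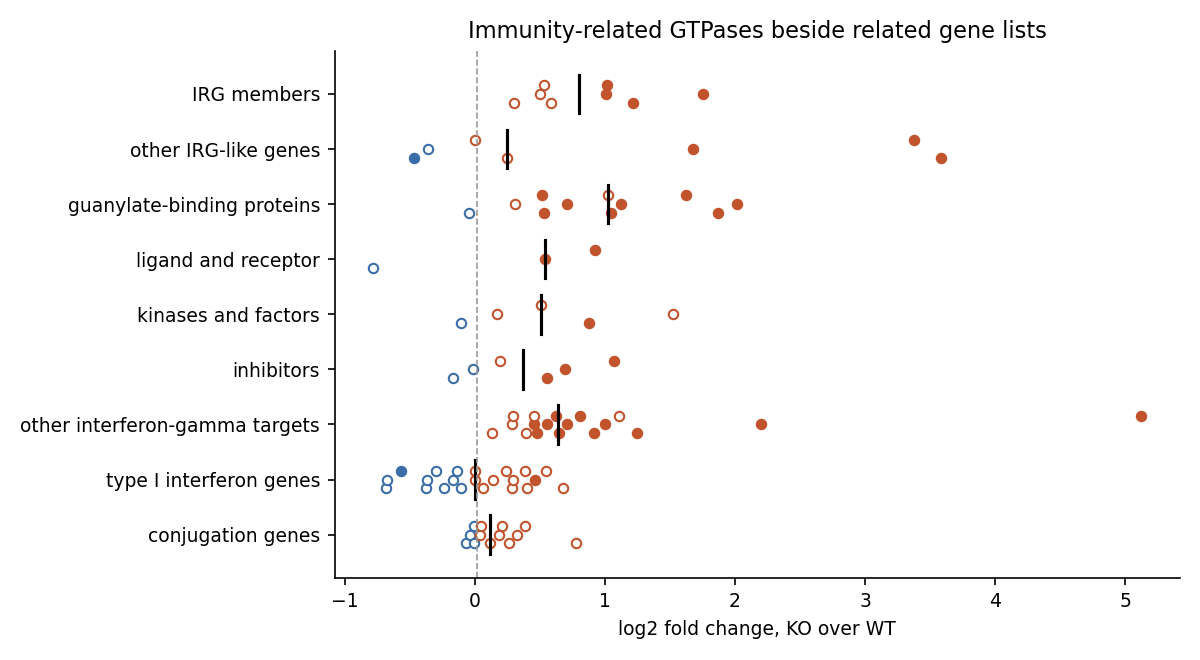
Log2 fold change (KO over WT) of each tested gene in the IRG members and 8 related lists, filled where the FDR was under 0.05, red above and blue below 0, with the list median as a black bar and the median of all genes, 0.016, as a dashed line. The IRG median of 0.80 and that of the GBPs of 1.02 were 0.64 and 0.65 without KO replicate 1, while the medians of type I interferon genes and of conjugation genes lie at 0.00076 and 0.11.

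Because the deleted gene is a microRNA, the members' 3′ UTRs were searched for the 7-base complements of its seeds. Both mature strands are made from the Mir142 hairpin on chromosome 11 (GRCm38.p6, RefSeq) and are shown 5′ to 3′ with the seed, bases 2 to 8, in capitals.
miR-142a-3p, chr11:87756903-87756925, + strand: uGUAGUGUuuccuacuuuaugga
miR-142a-5p, chr11:87756867-87756887, + strand: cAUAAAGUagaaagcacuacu
Among the 7 members with an annotated 3′ UTR in GENCODE vM21 (304 to 2110 bases), only Irgm2 had a match, 1 ACACTAC site of the miR-142a-3p seed in a 3′ UTR of 2110 bases. The site lies at chr11:58221175-58221181 (GRCm38, + strand) and is shown in capitals within its flanks.
Irgm2 3′ UTR: tcagcaccctACACTACccttga
This 7-mer was present in 7.71% of 10793 tested genes with a 3′ UTR. The members had no site for the offset seed of miR-142a-3p (AACACTA, 10.8% of genes) or for the miR-142a-5p seed (ACTTTAT, 16.2%). Of the 4 members called higher, Igtp, Iigp1 and Tgtp1 held none of the 3 searched 7-mers in these UTRs, and Gm12250 could not be searched because this annotation gives it no UTR. Irgm2, with its 1 site, was not called (log2 fold change 0.50, FDR = 0.315).

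Leaving out each library in turn moved the number of members called from 4 to between 1 and 6. It was 2 without WT replicate 1, WT replicate 3 or KO replicate 3, 1 without WT replicate 2, 3 without KO replicate 1 and 6 without KO replicate 2. Over all genes, higher calls ranged from 483 without WT replicate 2 to 1403 without KO replicate 2, against 1350 with all 6 libraries. In the 48 values of these fits, no member changed direction. The lowest was that of Irgm1 without KO replicate 1, at 0.013. Without KO replicate 2, the library lowest for every member, Tgtp2 (0.84, FDR = 0.0109) and Ifi47 (0.72, FDR = 0.0109) were called as well.

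**Figure D5:**
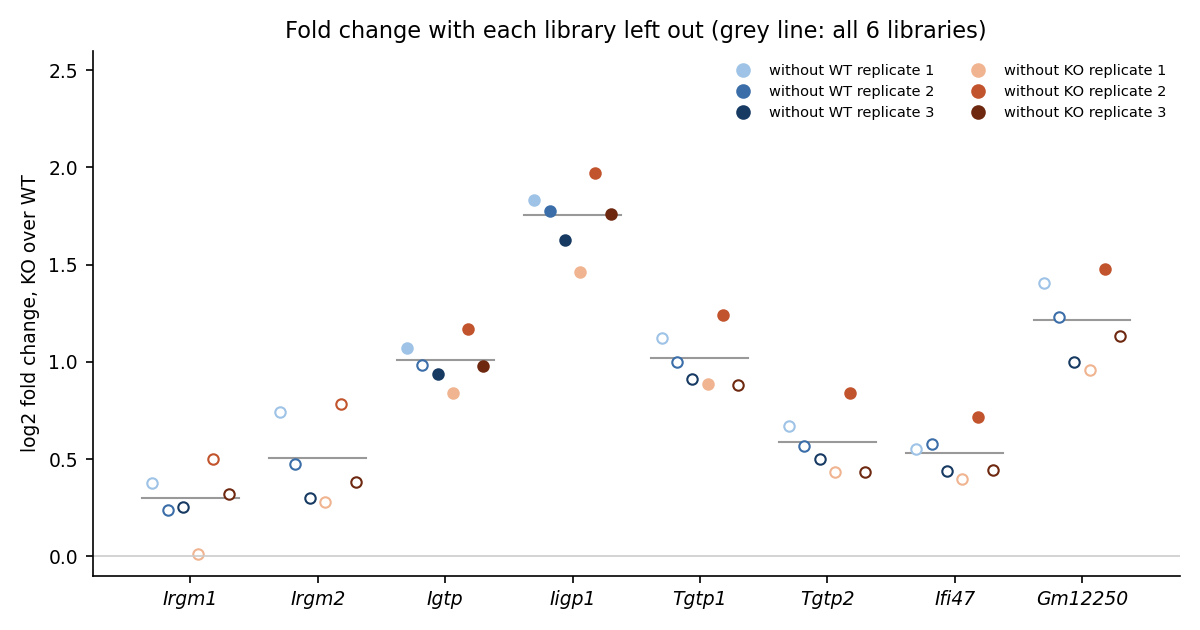
Log2 fold change (KO over WT) of each member in the 6 fits that each left out 1 library, filled where the FDR was under 0.05, with a grey line at the value with all 6 libraries. All values lie above 0, Iigp1 is filled in all 6 fits, and each member has its highest value without KO replicate 2.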

How the data were processed

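Treg cell RNA was sequenced from 6 mice, 1 library per mouse. The authors aligned 51-base single-end reads to mm10 with HISAT and counted them on genes with featureCounts without regard to strand, and the deposited values are raw counts for 24421 genes. The submitters' processing notes also name CASAVA and edgeR. The counting annotation and the handling of reads with several matches are not given in the sources used here. All 6 sample columns were used. Depth in the WT replicates was 15493795, 24042994 and 17779518 total counts, and in the KO replicates 18601425, 13883069 and 14822989, and 3 counts, the floor, correspond to 0.123 to 0.227 CPM.

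The filter on low values, CPM above 1 in 3 or more libraries, left 11658 genes. KO was compared with WT by the QLF test of edgeR 4.0.16 (R 4.3.3) on TMM-normalized libraries, with the FDR computed over all genes tested and called under 0.05. CPM in the text is relative to the TMM effective library size, and fold changes carry the standard error (SE) of the model. Exact two-sided permutation tests used log2 of CPM plus 0.5, or log2 ratios. Alternatives covered RLE and library size scaling, DESeq2 1.42.0, the likelihood ratio and exact tests, filters, a threshold of 0.01, a replicate block, the sum of Tgtp1 and Tgtp2, and leaving out each library. The fitting step was tested on simulated counts.

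Genes were placed by symbol in GENCODE vM21 (GRCm38), promoters, miRNAs and second gene models came from RefSeq (GRCm38.p6), and coding identity was computed with Biopython 1.88. The named genes were all members, all other IRG-like genes, all ligand, receptor, kinase, factor and inhibitor genes, the 3 genes with the smallest p in each other list, and the 5 genes with the closest profile. The values of 1 gene that this rule names are not reported here. The members and lists were chosen with earlier results of these data known.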

Additional observations from a re-analysis of the deposited data

How the results depend on the processing

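No member changed direction in any fit, and of their 72 values under settings that kept all libraries 67 stayed on the same side of the threshold. With 3 mice per group single calls were fragile. At an FDR under 0.01 the QLF test called 2 members (Igtp and Iigp1), 7 IFNγ pathway genes and 686 genes in all. Leaving out 1 library gave 1 to 6 members called higher, 6 to 22 pathway genes and 691 to 2340 genes in all. For these counts the lowest values came without WT replicate 2, and the cause was not tested. The labels give replicate numbers alone, so whether same-numbered WT and KO mice were paired is not known. Deviations of same-numbered libraries had correlations of 0.073, -0.012 and -0.188, which with 3 libraries per group cannot settle it. A replicate block gave 4 members, 17 pathway genes and 1606 genes in all, while 0 of the members were called lower.

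Library size scaling moved the median over all genes from 0.016 to -0.061 and called 4 members. Direction turned for genes with values near 0. Irgq had -0.0088 with RLE size factors, -0.078 with library size alone, -0.0071 with DESeq2, -0.020 with no filter on low counts and -0.0032 with edgeR's default filter, and -0.076 to 0.060 when 1 library was left out. In the same fits Ptpn2 was between -0.086 and 0.013, Ptpn6 between -0.061 and 0.41, and Gm12185 between -0.10 and 0.50.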
